A study of Mus musculus with 10 samples.

Results

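Toll-like receptors are the sensors with which blood leukocytes detect microbial lipids and nucleic acids. The 10 genes described here are 7 of these receptors (Tlr1, Tlr2, Tlr4, Tlr6, Tlr7, Tlr9 and Tlr13), the coreceptors Cd14 and Ly96, and the adaptor Myd88. They were chosen by name, as listed members of the family, with earlier results of these data known. Other Toll-like receptors form a separate list below. All 10 were found in the count table of 32285 genes, each as 1 entry. The libraries held blood RNA of C57/BL6J mice, and the labels give leukocyte as the cell type. The groups were sleep deprivation (SD) for 6, 12, 24 and 48 h, a sleep restriction method (SASD) for 6, 12, 24, 48 and 120 h, and a control (Con) at 0 h. Every group had 1 library, made from the pooled blood RNA of 3 mice, and the 10 libraries held 7825120 to 27501393 counted read pairs. The sources used here do not give the way SD and SASD were done, the age of the mice or the hour of day at which blood was drawn.

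As background, CD14 captures lipopolysaccharide and hands it to TLR4, which binds it together with MD-2, the product of Ly96. TLR2 detects bacterial lipopeptides as a pair with TLR1 or with TLR6, the pair with TLR1 being known for triacylated forms and the pair with TLR6 for diacylated ones. TLR7, TLR9 and TLR13 sit in endosomes and detect single-stranded RNA, unmethylated CpG DNA and bacterial ribosomal RNA. Signals of all these receptors run through the adaptor MyD88, for TLR4 beside a second adaptor, to NF-kB and AP-1. In mouse blood CD14, TLR2 and TLR4 are known from monocytes and neutrophils, and TLR9 from B cells and plasmacytoid dendritic cells.

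All 10 genes are protein coding, and their positions are given on mm10. Tlr4 lies on the plus strand at chr4:66827584-66930284, Ly96 on the plus strand at chr1:16688051-16709611 and Cd14 on the minus strand at chr18:36725067-36726798. Tlr2 lies on the minus strand at chr3:83836272-83841767. Tlr1 and Tlr6 neighbour each other on the minus strand, at chr5:64924679-64933563 and chr5:64952031-64960097. Among the nucleic acid sensors, Tlr7 is at chrX:167304929-167330558 on the minus strand, Tlr13 at chrX:106143204-106160493 on the plus strand and Tlr9 at chr9:106222598-106226883 on the plus strand. Myd88 is at chr9:119335934-119341411 on the minus strand.

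Reads that fit several places were not counted, which touches a few of these genes. Of all 50-base words in the transcripts of Tlr1, 13.6% also occurred in Tlr6, and 12.3% of those of Tlr6 occurred in Tlr1. Counts of both genes are uncertain to that extent. In Myd88, 290 exon bases (11.26%) overlapped Acaa1a on the opposite strand, and strand was not used in counting. For Tlr2, Tlr7, Tlr9, Tlr13, Cd14 and Ly96 no 50-base word was found in another gene.

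Promoter windows of 300 bases, from 250 bases before to 50 bases after the start, were taken from RefSeq on GRCm38.p6 and matched 6 of the 10 genes. The windows of Tlr2, Tlr6, Tlr13 and Myd88 are shown because these transcripts were the ones, beside Cd14, that were at least 1.5-fold higher in SD than in SASD blood from 12 h on. The window of Tlr9 is shown as that of a receptor that was not higher in SD blood at 24 and 48 h. Capitals mark the words searched on both strands, namely GAGGAA (PU.1 type), TGANTCA (AP-1) and the NF-kB consensus.
Tlr2 (chr3:83841559-83841858, minus strand): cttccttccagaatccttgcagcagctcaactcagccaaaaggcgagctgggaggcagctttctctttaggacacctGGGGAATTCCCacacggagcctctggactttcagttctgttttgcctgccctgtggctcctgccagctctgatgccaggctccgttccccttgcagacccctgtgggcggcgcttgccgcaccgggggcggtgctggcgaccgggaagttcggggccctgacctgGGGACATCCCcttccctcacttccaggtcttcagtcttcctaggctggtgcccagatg
Tlr6 (chr5:64959999-64960298, minus strand): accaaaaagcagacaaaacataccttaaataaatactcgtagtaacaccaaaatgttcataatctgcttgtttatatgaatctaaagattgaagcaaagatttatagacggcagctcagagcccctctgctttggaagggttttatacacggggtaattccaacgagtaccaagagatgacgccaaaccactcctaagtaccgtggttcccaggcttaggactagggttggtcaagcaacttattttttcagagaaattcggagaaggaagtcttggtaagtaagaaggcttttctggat
Tlr13 (chrX:106143025-106143324, plus strand): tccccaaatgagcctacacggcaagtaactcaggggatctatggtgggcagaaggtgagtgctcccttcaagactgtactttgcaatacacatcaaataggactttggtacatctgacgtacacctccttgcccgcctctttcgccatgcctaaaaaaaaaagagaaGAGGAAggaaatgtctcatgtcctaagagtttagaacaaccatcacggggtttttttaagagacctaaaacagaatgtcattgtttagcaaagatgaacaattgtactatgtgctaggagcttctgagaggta
Myd88 (chr9:119339969-119340268, minus strand): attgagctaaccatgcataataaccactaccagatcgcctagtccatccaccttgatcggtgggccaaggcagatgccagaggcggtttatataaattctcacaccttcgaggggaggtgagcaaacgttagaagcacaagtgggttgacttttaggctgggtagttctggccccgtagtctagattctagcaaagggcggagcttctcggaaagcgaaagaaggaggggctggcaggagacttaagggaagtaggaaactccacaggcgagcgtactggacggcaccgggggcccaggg
Tlr9 (chr9:106222348-106222647, plus strand): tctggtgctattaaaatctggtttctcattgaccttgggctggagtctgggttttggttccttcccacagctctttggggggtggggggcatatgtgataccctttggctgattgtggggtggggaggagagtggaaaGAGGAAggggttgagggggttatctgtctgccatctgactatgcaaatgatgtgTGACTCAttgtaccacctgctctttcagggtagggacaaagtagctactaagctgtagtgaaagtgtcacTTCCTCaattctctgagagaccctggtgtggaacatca

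Counting the start base as 0, Tlr2 held overlapping NF-kB words from -173 to -163 and another from -8 to 1. An NF-kB word was present in 8.46% of all 32851 windows of the table. Tlr13 held GAGGAA at -83 to -78, and Tlr9 held this word at -112 to -107 and, on the opposite strand, at 12 to 17. That word occurred in 28.3% of all windows. Tlr9 also held the AP-1 word TGACTCA at -58 to -52, a word found in 7.81% of all windows. In the Tlr6 and Myd88 windows none of these words was found. The RefSeq start used for Myd88 lies 1393 bases from the start in the gene annotation. These matches describe letters in the windows and were not tied to the counts.

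Facts of the whole series bear on every value. Haemoglobin genes took 0.275 to 0.727% of counts in Con and both 48 h libraries, and 3.57 to 6.96% in the other 7 libraries, so Con and the 48 h libraries stand apart, and the labels give no reason. The slopes are therefore also given without them. Markers of leukocyte types were present throughout: none of the 66 markers listed was at 0 in any library. Markers of red cells and platelets were counted too. Levels below are CPM (read pairs scaled to a common library size) computed with TMM factors, and their 95% intervals are exact and cover counting error alone.

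Per kb of exon length, Tlr1 was the most abundant of the 10 transcripts in SD at 6 h, in all 5 SASD libraries and in Con, at 30.0 to 43.7 CPM per kb there. In SD blood the order changed from 12 h on. Myd88 led at 12 and 48 h of SD with 45.1 and 47.9 CPM per kb, and Tlr13 led at 24 h of SD with 52.6 CPM per kb. Cd14 took place 3 at 48 h of SD with 39.2 CPM per kb, against place 9 at 48 h of SASD with 3.25 CPM per kb and place 10 in Con with 1.76 CPM per kb. Ly96 stayed at place 9 or 10 in every library, at 1.52 to 3.16 CPM per kb.

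Of the lipopolysaccharide receptor complex, Cd14 showed the widest range. Its level was 7.79, 31.6, 41.1 and 67.9 CPM after 6, 12, 24 and 48 h of SD. After 6, 12, 24, 48 and 120 h of SASD it was 8.33, 5.21, 8.51, 5.63 and 3.16 CPM, and in Con it was 3.04 CPM. The 3 later SD libraries stood above every other library, and SD at 6 h lay within the range of the SASD libraries. Next to each other in the order of levels, SASD at 120 h and Con could not be told apart by their counting intervals, nor SASD at 12 and 48 h, nor the 6 h libraries of SD and SASD, nor SASD at 6 and 24 h. SD over SASD was 0.936-fold at 6 h (95% interval 0.684 to 1.28), 6.06-fold at 12 h (4.46 to 8.40), 4.82-fold at 24 h (3.64 to 6.51) and 12.1-fold at 48 h (10.2 to 14.4). Over Con, Cd14 was 22.3-fold higher at 48 h of SD (18.1 to 27.8) and 1.85-fold higher at 48 h of SASD (1.43 to 2.41). In bulk RNA of this kind, a change in the number of cells of a type and a change in RNA per cell cannot be told apart.

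**Figure D1:**
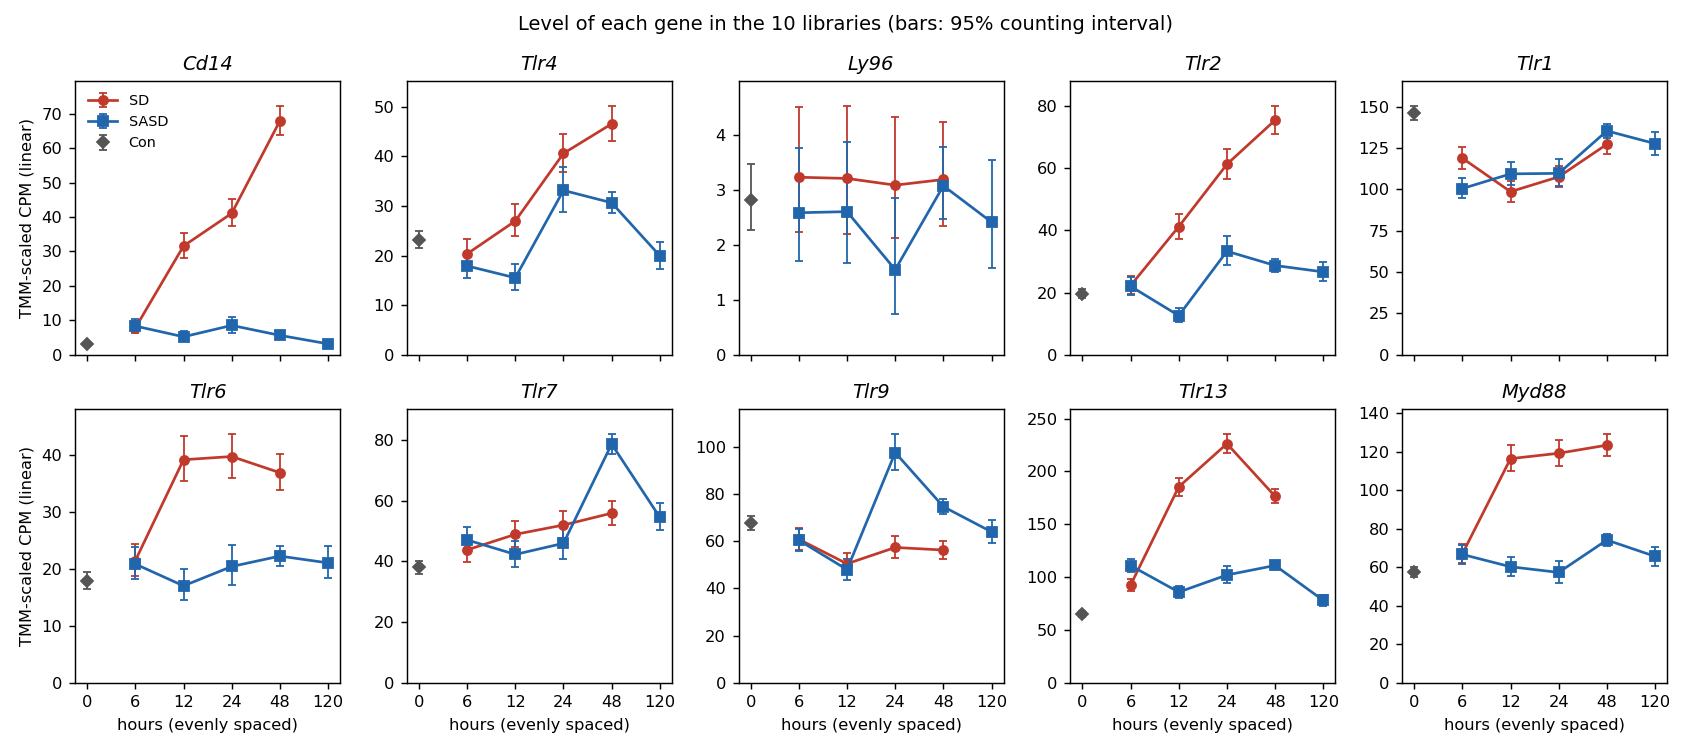
TMM-scaled CPM (linear axis) of each of the 10 genes in every library against hours, evenly spaced, for SD (red circles), SASD (blue squares) and Con (grey diamond), with bars for the 95% counting interval. Cd14 reached 67.9 CPM at 48 h of SD, while the SASD libraries stayed at or below 8.51 CPM; Tlr2, Tlr6, Tlr13 and Myd88 part from SASD from 12 h on, and Ly96 and Tlr1 do not.

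Tlr4, the signalling receptor of this complex, covered a narrower range. It was at 20.3, 27.0, 40.6 and 46.5 CPM over the 4 SD times. In SASD blood it was at 17.9, 15.5, 33.1, 30.6 and 20.0 CPM over the 5 times, and in Con at 23.2 CPM. Tlr4 was highest at 24 and 48 h of SD, but SD at 12 h lay below SASD at 24 and 48 h, so the groups overlapped. SD over SASD was 1.14-fold at 6 h with an interval that held 1 (0.929 to 1.39), and 1.74-fold, 1.23-fold and 1.52-fold at 12, 24 and 48 h with intervals above 1.

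Ly96 was thinly counted, with 10 to 90 read pairs a library. Its level was 3.23, 3.21, 3.09 and 3.19 CPM over the SD times, against 2.58, 2.60, 1.55 and 3.08 CPM in SASD blood at those times, 2.41 CPM at 120 h of SASD and 2.82 CPM in Con. All 4 SD values lay above all 4 SASD values, which 1.66% of the 13370 genes tested also showed, but with total counts in place of TMM factors the order turned at 48 h. The counting interval of the SD over SASD ratio held 1 at every time, so no difference was detectable at this depth. The coreceptors thus gave unlike values: per kb, Cd14 over Tlr4 was 1.23, 3.76, 3.24 and 4.68 over the SD times and 1.49, 1.08, 0.824 and 0.589 over the same SASD times, against 0.421 in Con. Ly96 over Tlr4 per kb was 0.865, 0.647, 0.414 and 0.373 over the SD times and 0.786, 0.913, 0.254 and 0.546 in SASD blood at those times, with 0.663 in Con.

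In the TLR2 group, the shared receptor Tlr2 was at 22.2, 41.2, 61.3 and 75.4 CPM over the SD times. It was at 22.0, 12.6, 33.3, 28.7 and 26.6 CPM over the SASD times and at 19.6 CPM in Con. From 12 h on, every SD library was above every SASD library and above Con, a pattern over the 4 shared times that 6.4% of the genes tested also had, and at 6 h the methods gave nearly the same level. SD over SASD was 1.01-fold at 6 h (0.838 to 1.22), 3.27-fold at 12 h (2.66 to 4.06), 1.84-fold at 24 h (1.58 to 2.16) and 2.63-fold at 48 h (2.40 to 2.88). The 12 h ratio is set in part by SASD at 12 h, which held the lowest Tlr2 level of all libraries and was 0.642-fold of Con (0.522 to 0.784).

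The partners of TLR2 had unlike patterns. Tlr6 was at 21.5, 39.2, 39.8 and 36.9 CPM over the SD times, against 20.9, 17.0, 20.4 and 22.3 CPM over the same SASD times, 21.1 CPM at 120 h of SASD and 17.9 CPM in Con. The SD libraries from 12 h on formed a level of their own: neighbours among them did not differ beyond counting error, and the lowest of them was 1.66-fold above the highest SASD library (1.48 to 1.86). Tlr1 was at 118.9, 98.6, 107.6 and 127 CPM over the SD times, against 100.5, 109.4, 109.7 and 135 CPM over the same SASD times, 128 CPM at 120 h of SASD and 146 CPM in Con. Con held the highest Tlr1 level, and all 9 other libraries lay below it. The SD over SASD ratio of Tlr1 was 1.18-fold at 6 h (1.09 to 1.29) and between 0.902-fold and 0.981-fold at the later times. Per kb, Tlr2 over Tlr1 was 0.208, 0.464, 0.632 and 0.658 over the SD times, against 0.243, 0.128, 0.337 and 0.235 over the same SASD times and 0.149 in Con.

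Of Tlr7, Tlr9 and Tlr13, only Tlr13 was higher in SD than in SASD blood at each of 12, 24 and 48 h. Tlr8, from the separate list of other Toll-like receptors, was also higher at those times, at log2 ratios of 0.87, 0.63 and 0.28. At 6 h the log2 ratio of Tlr8 was -0.25. The Tlr13 level was 92.4, 185, 226 and 176 CPM over the SD times. In SASD blood it was 110.9, 85.8, 102, 111 and 77.9 CPM over the 5 times, and in Con 65.1 CPM. At 6 h it was lower in SD than in SASD blood, at 0.833-fold (0.765 to 0.908), and at 12, 24 and 48 h it was 2.16-fold, 2.22-fold and 1.59-fold higher with intervals above 1. The highest Tlr13 level was that of SD at 24 h, and Con held the lowest.

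Tlr7 was at 43.8, 48.9, 52.0 and 55.9 CPM over the SD times, against 47.1, 42.3, 46.0 and 78.7 CPM over the same SASD times, 54.6 CPM at 120 h of SASD and 38.1 CPM in Con. The highest level was that of SASD at 48 h, where SD over SASD was 0.710-fold (0.655 to 0.770). Tlr9 was at 60.8, 50.4, 57.3 and 56.2 CPM over the SD times, against 60.4, 48.0, 97.5 and 74.6 CPM over the same SASD times, 63.9 CPM at 120 h of SASD and 67.7 CPM in Con. It stood out in SASD at 24 h, where SD over SASD was 0.588-fold (0.525 to 0.658), and at 48 h the ratio was 0.754-fold (0.695 to 0.817). At 24 h the summed markers of B cells were 4179 CPM in SD and 5557 CPM in SASD blood. Those of plasmacytoid dendritic cells summed to 217 CPM in SD and 311 CPM in SASD blood, of which Tcf4 made up 159 CPM in SD and 272 CPM in SASD blood. The markers Siglech, Bst2 and Ccr9 of that list were higher in SD blood at 24 h, at log2 ratios of 0.32, 0.76 and 0.47, and the list's median was 0.40, opposite in sign to the difference of the sums. Their part in the Tlr9 ratio was not tested. Per kb, Tlr13 over Tlr9 was 1.23, 2.97, 3.19 and 2.53 over the SD times, against 1.48, 1.45, 0.845 and 1.20 over the same SASD times and 0.778 in Con.

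Myd88, the common adaptor, was at 66.9, 116, 119 and 123 CPM over the SD times. Over the SASD times it was at 66.6, 60.2, 57.3, 74.1 and 65.6 CPM, and in Con at 57.5 CPM. The 3 later SD libraries lay close together and above all others, and the 6 h libraries lay within counting error of each other. SD over SASD was 1.004-fold at 6 h with an interval that held 1, 1.93-fold at 12 h (1.74 to 2.14), 2.08-fold at 24 h (1.85 to 2.34) and 1.66-fold at 48 h (1.56 to 1.77).

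Over the 10 genes, the pairs of libraries can be read time by time. At 6 h none of the 10 was at least 1.5-fold higher in SD than in SASD blood, where 2.77% of the genes tested were. At 12 h and at 48 h 6 were, Tlr2, Tlr4, Tlr6, Tlr13, Cd14 and Myd88 (background 9.67% at 12 h and 11.6% at 48 h). At 24 h 6 were, with Ly96 in the place of Tlr4 (14.8%). One gene, Tlr9 at 24 h, was at least 1.5-fold lower in SD blood, as were 11.5% of all genes tested at that time, but with total counts in place of TMM factors its log2 ratio of -0.55 lay short of 1.5-fold. The median log2 ratio of the 10 genes was 0.01, 0.87, 0.92 and 0.64 over the 4 times, and that of all genes tested lay between -0.01 and 0.01. Tlr2, Tlr6, Tlr13, Cd14 and Myd88 were at least 1.5-fold higher at each of 12, 24 and 48 h, as were 2.79% of the genes tested. With total counts in place of TMM factors, every gene's ratio moves by 0.22 on the log2 scale at 24 h and by -0.12 at 48 h, and at most 0.03 in size at 6 and 12 h. With that scaling Myd88 was at a log2 ratio of 1.27 at 24 h and 0.61 at 48 h, and Tlr13 at 1.37 and 0.54. At 48 h Tlr13 and Tlr4 then lay under 1.5-fold, and Tlr7, at -0.62, was more than 1.5-fold lower in SD blood.

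**Figure D2:**
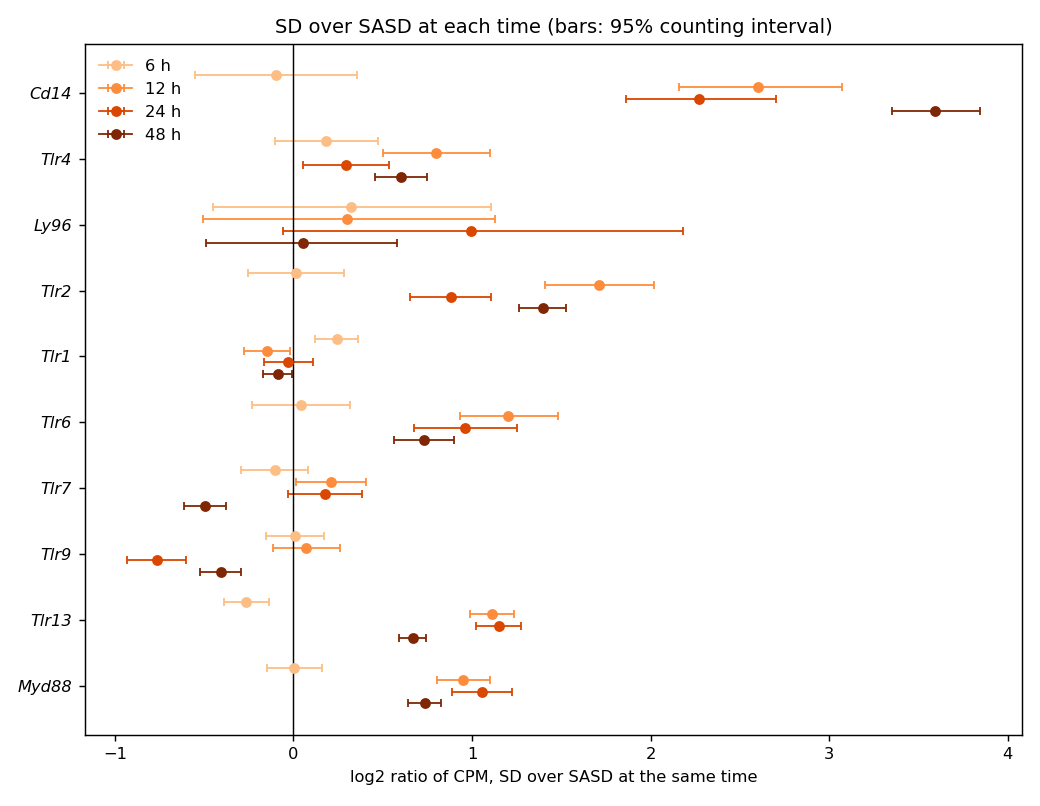
Log2 ratio of CPM, SD over SASD, of each gene at 6, 12, 24 and 48 h (light to dark), with bars for the 95% counting interval and a line at 0. At 6 h all 10 genes lie between 0.833-fold and 1.25-fold; at 12, 24 and 48 h Cd14 lies furthest to the right, and Tlr9 at 24 h and Tlr7 at 48 h lie to the left of 0.

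SD was then set against SASD over the 8 libraries of the shared times, with time as a block, so the p-value weighs each difference against its change from time to time. At an adjusted p under 0.05 in edgeR's quasi-likelihood test (Benjamini-Hochberg), none of the 10 genes was called, and none of the 13370 genes tested was (0.0%). At an unadjusted p under 0.05 there were 1082 genes (8.09%), among them 6 of the 10, Cd14, Tlr2, Tlr4, Tlr6, Tlr13 and Myd88, all higher in SD blood. Across all genes limma called 0 and DESeq2 169, of which 165 were higher in SD blood (1.37%), Tlr2 and Myd88 among them. The estimates were largest for Cd14, at a log2 ratio of 2.22 ± 0.52 (SE) with an edgeR adjusted p of 0.310, and Tlr2, at 1.01 ± 0.25 with 0.323. Tlr6 was at 0.73 ± 0.18, Myd88 at 0.69 ± 0.17, Tlr13 at 0.67 ± 0.23 and Tlr4 at 0.47 ± 0.12. Ly96 was at 0.36 ± 0.25. Tlr1, Tlr7 and Tlr9 had estimates of 0.00 ± 0.10, -0.06 ± 0.13 and -0.27 ± 0.15, and the median of the 10 was 0.57, against 0.00 over all genes tested. Without the 6 h pair edgeR called 5 of the 10 as higher, where 1.76% of 13439 genes were, namely Tlr2, Tlr6, Tlr13, Cd14 and Myd88, with adjusted p from 0.0136 to 0.0297. The pair left out is the one at which all 10 genes lay between 0.833-fold and 1.25-fold, and 6 libraries remain. With no count minimum the same 5 genes were called (1.37%).

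The hours themselves were described by slopes, in log2 units per doubling of 1 plus hours over 6. Over Con and the 4 SD libraries Cd14 had a slope of 1.45 ± 0.20 (edgeR adjusted p 0.0735) and Tlr2 of 0.68 ± 0.09 (0.0651). Tlr13 followed at 0.55 ± 0.16, Myd88 at 0.39 ± 0.10, Tlr6 at 0.38 ± 0.11 and Tlr4 at 0.37 ± 0.08, and Tlr7 had 0.18 ± 0.05. Ly96, Tlr1 and Tlr9 lay near 0, at 0.04 ± 0.11, -0.07 ± 0.08 and -0.08 ± 0.06. None of the 10 was called, where edgeR called 0.124% of 14562 genes as rising; 7 of the 10 had an unadjusted p under 0.05, as did 10.4% of all genes tested. With a term for Con and the 48 h libraries, 7 of the 10 were called as rising (background 4.32%), and with those libraries left out 4 were, Tlr2, Tlr4, Tlr13 and Cd14 (2.29%). DESeq2 called 6 (3.28%), the 7 of that term without Tlr6. Without SD at 48 h 3 were called (2.08%), namely Tlr2, Tlr13 and Cd14. Over Con and the 5 SASD libraries the slopes lay between -0.05 and 0.17, and no gene of the 14602 tested was called by edgeR (0.0%), with 443 (3.03%) at an unadjusted p under 0.05, none of the 10 among them. Limma and DESeq2 also called none of the 10.

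The difference between the SD slope and the SASD slope was tested in a fit to all 10 libraries, in which both slopes share Con. Of the 10 genes, 4 had a steeper slope in SD blood at an edgeR adjusted p under 0.05, where 1.82% of 13982 genes did. They were Cd14, with a difference of 1.23 ± 0.15 and an adjusted p of 0.00299, Tlr2 with 0.51 ± 0.09 and 0.0181, Myd88 with 0.35 ± 0.06 and 0.0108, and Tlr6 with 0.35 ± 0.06 and 0.0194. Tlr13 had 0.41 ± 0.09 with an edgeR adjusted p of 0.0607, and was called under 6 of the 19 alternatives. Tlr4 was at 0.28 ± 0.09 and Ly96 at 0.13 ± 0.09. Tlr1, Tlr7 and Tlr9 lay at -0.03, -0.01 and -0.13. The median over the 10 was 0.31, against -0.01 over all genes tested. Cd14 was called under each of the 19 alternatives run, with edgeR, limma or DESeq2 adjusted p up to 0.0326. Without SD at 24 h or without SASD at 120 h, Cd14 alone of the 10 was called, where 0.871% and 0.41% of genes were called as higher. Without SD at 48 h, and without Con and both 48 h libraries, Tlr2 lost its call (edgeR adjusted p 0.099 and 0.0746) and Tlr13 gained one (0.0498 and 0.035); without Con and both 48 h libraries 1.53% of genes were called as higher.

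**Figure D3:**
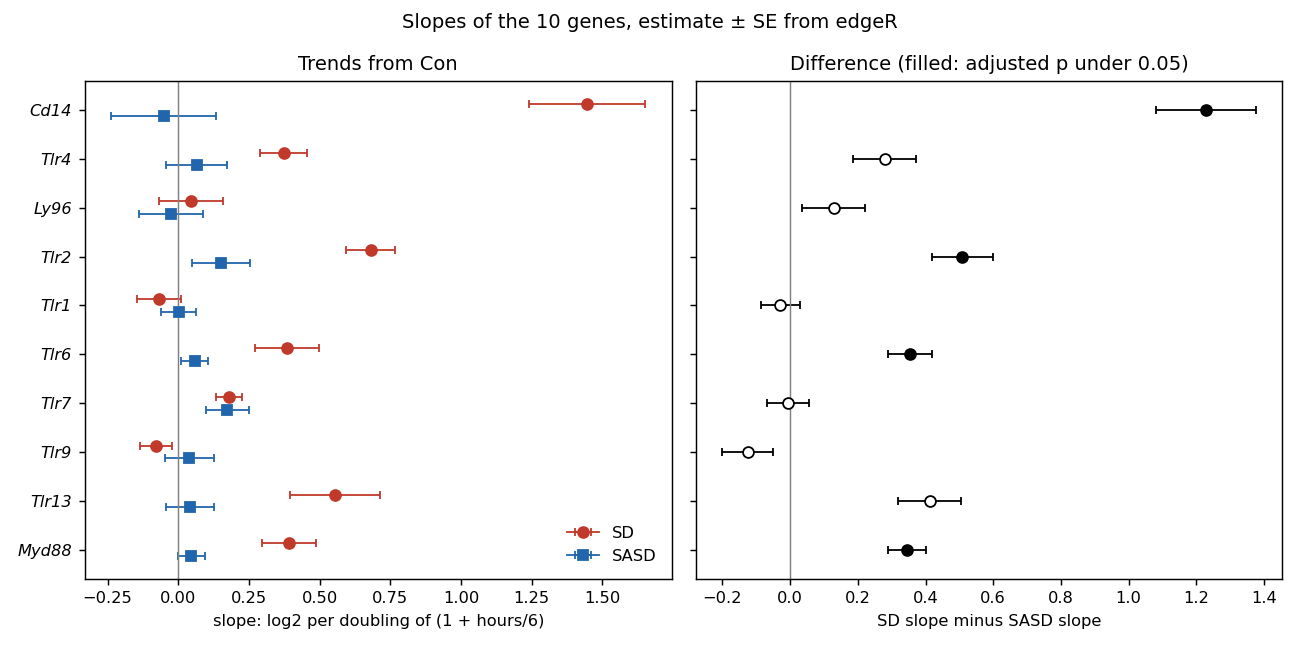
Left, slopes from Con over the SD libraries (red circles) and over the SASD libraries (blue squares) in log2 per doubling of 1 plus hours over 6; right, SD slope minus SASD slope, filled where the edgeR adjusted p was under 0.05; bars are the SE. Cd14, Tlr2, Tlr6 and Myd88 are filled, at differences of 1.23, 0.51, 0.35 and 0.35.

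Across the 10 libraries some of these genes ran together. The Pearson correlation of log2 levels, over 10 libraries that share Con, time points and the haemoglobin split, was 0.98 for Tlr6 with Myd88, 0.94 for Tlr6 with Tlr13 and for Cd14 with Tlr13, and 0.92 for Cd14 with Tlr6, Cd14 with Myd88 and Tlr2 with Tlr4. Tlr1 correlated at -0.41 with Cd14, Tlr9 at -0.34 with Cd14 and -0.69 with Ly96, and Tlr7 at 0.19 with Cd14. Of 9620 genes that averaged 100 or more counts a library, those most like Cd14 were Bst1 (r = 0.995), Bmx (0.989) and Arg2 (0.988). Most like Tlr2 were Mtus1 (0.987), Lcp1 (0.984) and Clec5a (0.979), most like Tlr6 Msrb1 (0.992), Nfe2l2 and Klhl2, and most like Tlr13 Sema4a (0.972), Msrb1 and Pram1. For Myd88 they were Fxyd5 (0.986), AB124611 and Atg3, and for Tlr4 Zfp516 (0.969), Zfp217 and Iqgap1. Tlr1 was most like the immunoglobulin light chain segments Igkv3-4 (0.973) and Igkv6-15 and the helicase gene Recql, Tlr9 like Mdfic (0.959), Myo18a and Rnf20, and Ly96 like Cdpf1 (0.946), Cluap1 and Mppe1. Tlr7 had no gene with r above 0.9; the highest was Gnpda1 (0.894), before Vwa5a and Fam49a. Bst1 itself was at 38.6, 76.2, 89.4 and 107 CPM over the SD times, against 36.2, 26.8, 32.4 and 27.7 CPM over the same SASD times and 20.8 CPM in Con. These are descriptions over few libraries, and no p is given.

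Markers of other cell types moved beside these genes. The summed level of 10 markers of mature neutrophils was 3275, 6395, 7741 and 11350 CPM over the SD times, against 2888, 2270, 3061 and 2559 CPM over the same SASD times, 2113 CPM at 120 h of SASD and 2295 CPM in Con. Of the 10 neutrophil markers, 7 had a steeper slope in SD than in SASD blood by edgeR, where 1.82% of all genes tested did, and all 10 estimates were above 0. For 8 markers of classical monocytes the sum was 1172, 1246, 3404 and 3327 CPM over the SD times, against 1374, 791, 1979 and 2448 CPM over the same SASD times and 998 CPM in Con, and 1 of the 8 was called in that test (background 1.82%), Tgfbi. All 8 monocyte estimates in that test were above 0 as well. So were all 8 of the T cell markers, and 0 of the 8 B cell markers. At 12 h of SD, where the neutrophil sum was 6395 CPM and the monocyte sum 1246 CPM, Cd14, Tlr2, Tlr6, Tlr13 and Myd88 were 10.4-fold, 2.10-fold, 2.19-fold, 2.85-fold and 2.02-fold above Con. Against SASD at 12 h both marker lists were higher in SD blood. The median log2 ratio there was 1.66 for the neutrophil list and 0.79 for the classical monocyte list. Markers of nonclassical monocytes summed to 1106 to 1338 CPM in SD and 1191 to 1468 CPM in SASD blood. For B cells the sums were 3800 to 4965 CPM in SD and 4519 to 5557 CPM in SASD blood at those times, and 5372 CPM in Con, with 0 of 8 called against the same 1.82%. Plasmacytoid dendritic cell markers summed to 158 to 217 CPM in SD and 183 to 311 CPM in SASD blood. Tcf4 alone was at 96.6 to 167 CPM in SD and 141 to 272 CPM in SASD blood, and 3 of the 4 markers of that list tested in SD against SASD had an estimate above 0 (median log2 ratio 0.20), with none called. Red cell markers summed to 3201 to 72830 CPM in SD and 2547 to 93820 CPM in SASD blood. Platelet markers summed to 2487 to 5709 CPM in SD and 1288 to 8655 CPM in SASD blood, and T cell and NK cell markers to 997 to 1205 and 314 to 395 CPM in SD, against 804 to 1252 and 334 to 422 CPM in SASD blood. The part of the neutrophil and monocyte markers in the levels of the 10 genes was not tested.

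**Figure D4:**
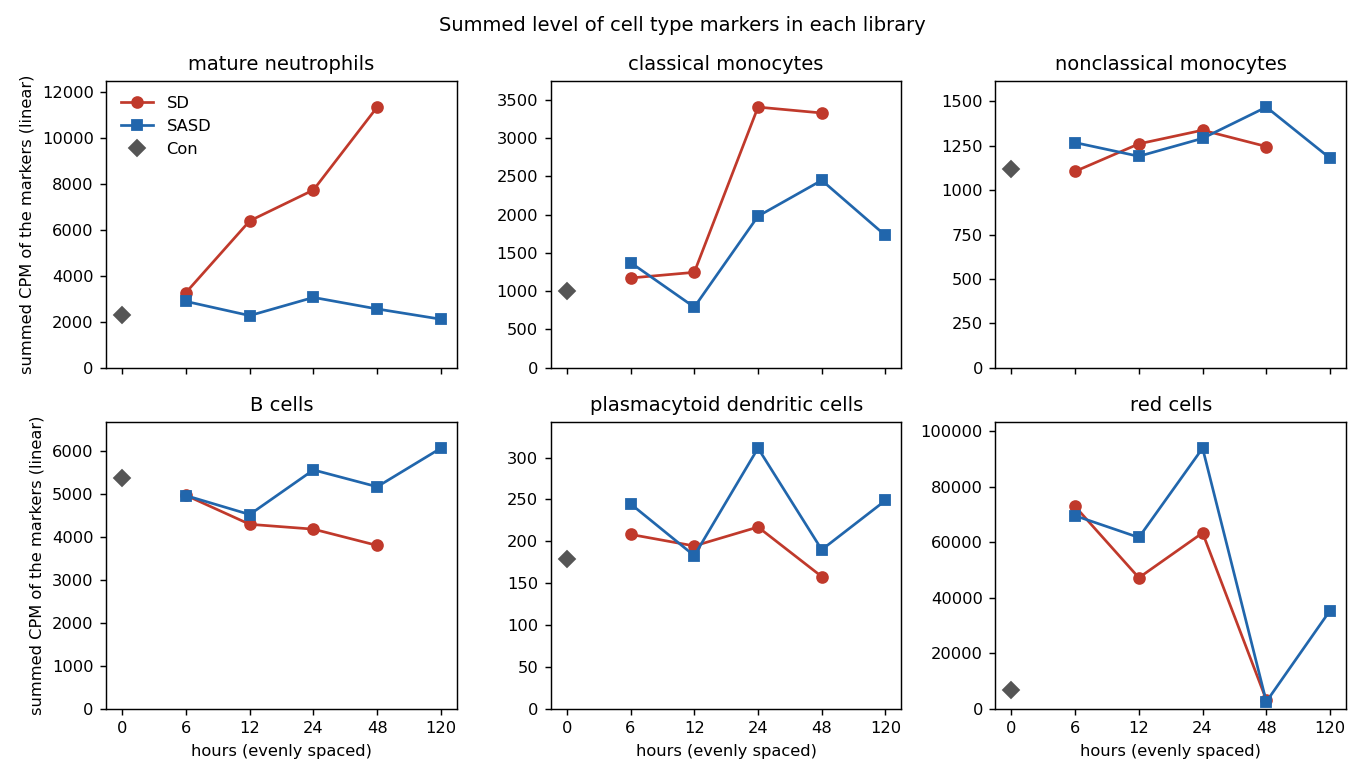
Summed TMM-scaled CPM (linear axes) of marker lists for 6 cell types in every library against hours, evenly spaced, for SD (red circles), SASD (blue squares) and Con (grey diamond). The neutrophil sum reaches 11350 CPM at 48 h of SD and stays at or below 3061 CPM in SASD blood. S100a8 and S100a9 are its largest parts at 48 h of SD. Red cell markers are low in Con and both 48 h libraries.

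The rest of the pathway was read from 70 further genes in 6 lists. Of 66 tested in SD against SASD, edgeR called 0 and 33 had an estimate above 0. By list, estimates above 0 numbered 3 of 5 other Toll-like receptors (median log2 ratio 0.29), 5 of 9 accessory and trafficking genes (0.00) and 9 of 18 adaptors and kinases (0.00). They numbered 7 of 14 negative regulators (-0.02), 3 of 9 transcription factors (-0.06) and 6 of 11 outputs (0.21), beside a median of 0.00 over all genes tested. In the test of the slope difference, 3 of 67 were called, where 1.82% of all genes tested were called as higher. All 3 were higher in SD and among the outputs, and 0 of the 55 genes of the other lists was called. They were Il1b, the gene of the cytokine interleukin-1 beta, at 0.68 ± 0.10 (edgeR adjusted p 0.0091), the neutrophil-attracting chemokine gene Cxcl2 at 1.48 ± 0.24 (0.0119), and Acod1, which codes for the enzyme that makes itaconate, at 1.46 ± 0.18 (0.00299). Il1b was at 203, 477, 452 and 436 CPM over the SD times, against 164, 119, 165 and 133 CPM over the same SASD times and 100.4 CPM in Con. Acod1 was at 4.56, 22.2, 23.3 and 35.7 CPM over the SD times, against 3.35, 0.976, 4.18 and 1.92 CPM over the same SASD times and 1.91 CPM in Con. Cxcl2 rests on 96 counts in SD at 48 h, against 1 to 15 in the other libraries. The other outputs gave no call. Nos2, the gene of inducible nitric oxide synthase, was at a log2 ratio of 2.92 ± 1.06 over the shared times and had a slope difference of 1.27 ± 0.37 (edgeR adjusted p 0.169); it rests on 153 counts in SD at 48 h, against 0 to 43 in the other libraries. Tnf was at a log2 ratio of -0.23 ± 0.40 and Il1a, the lowest of the list, at -0.96 ± 0.38. Ifnb1 had no count in any library.

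None of the 55 genes of the other 5 lists was called in the slope difference, and 25 had an estimate above 0. Among the other Toll-like receptors the flagellin receptor Tlr5 was highest, at a log2 ratio of 0.44 ± 0.20, and Tlr11 lowest, at -0.35 ± 0.45 with 3 to 34 counts a library. Among accessory and trafficking genes Lbp, which codes for the lipopolysaccharide-binding protein, was highest at 1.16 ± 0.47 and the scavenger receptor gene Cd36 lowest at -0.28 ± 0.10. The Lbp estimate (edgeR adjusted p 0.588) rests on 6 to 127 counts a library. At 6 h its log2 ratio was -0.90. Unc93b1, the chaperone that brings the endosomal receptors to their place, was at 0.04 ± 0.12. In the adaptor and kinase list, Tirap, which bridges TLR2 and TLR4 to MyD88, was highest at 0.40 ± 0.16, and Tab3 lowest at -0.20 ± 0.11. The kinase genes Irak1 and Irak4 were at -0.14 ± 0.09 and 0.26 ± 0.09, and Traf6 at -0.05 ± 0.10. Of the negative regulators, the phosphatase gene Dusp1 was highest, at 1.33 ± 0.27 with an edgeR adjusted p of 0.310 and a slope difference of 0.68 ± 0.16 (0.0706), and Sarm1 lowest at -0.34 ± 0.52 with 2 to 36 counts. Transcription factor genes lay between -0.21 ± 0.13 for Nfkb2 and 0.19 ± 0.14 for Irf7. Myd88 was called in the slope difference and none of the 18 genes of the adaptor and kinase list was. Tirap came closest in that list, at a slope difference of 0.24 ± 0.05 (edgeR adjusted p 0.0629). The difference between Myd88 and the genes of the list was not tested.

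**Figure D5:**
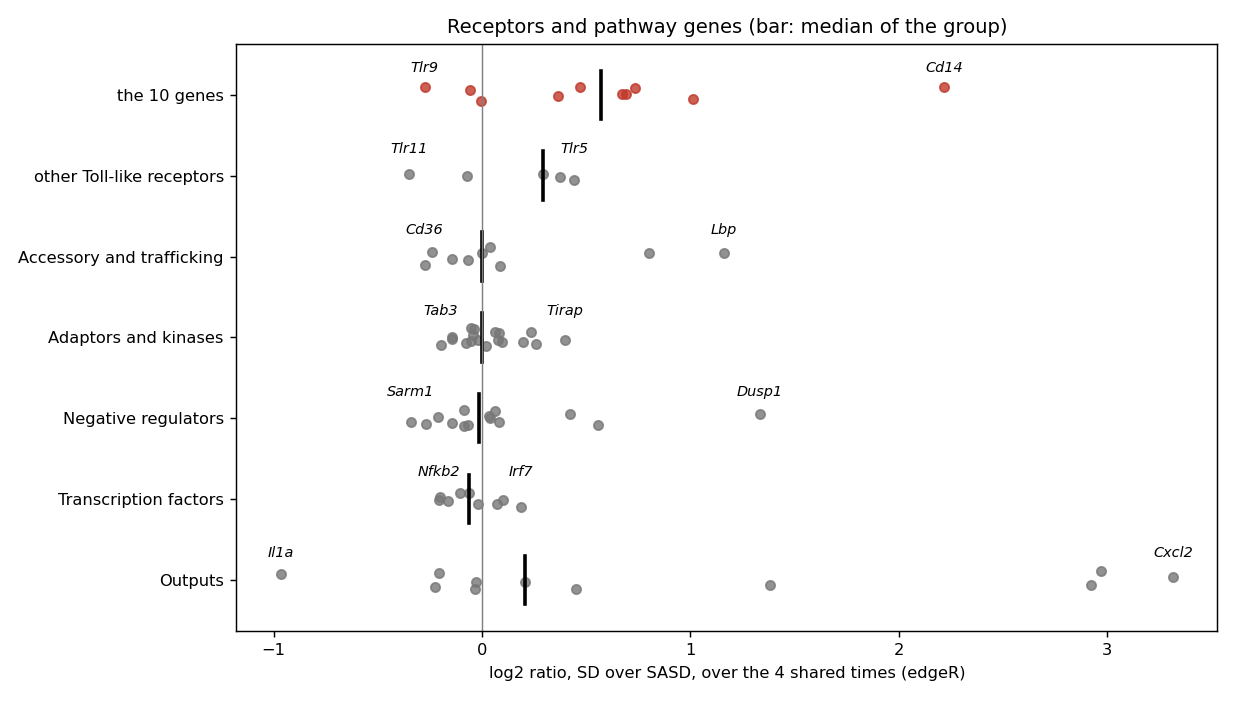
Log2 ratio, SD over SASD, over the 4 shared times by edgeR for the 10 genes (red) and for the tested genes of 6 pathway lists (grey), with the highest and lowest gene of each row named and a bar at the row's median. The median of the 10 genes is 0.57, and those of the lists lie between -0.06 and 0.29; none of these genes had an adjusted p under 0.05 in this fit.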

How the data were processed

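The submitters' processing notes name Trimmomatic 0.39, STAR 2.7.9a and the build mm10. The authors' gene counts came from featureCounts 2.0.3, run on exons and read pairs without a strand option, per the file headers; reads that mapped to several places or to several genes were not counted. The deposited table held raw counts of 32285 genes in 10 columns, each matched to a label, and 32158 of these IDs matched a symbol. Positions and exon lengths came from GENCODE M21, which may differ from the authors' annotation.

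TMM factors, edgeR 4.0.16 quasi-likelihood tests (R 4.3.3), limma 3.58.1 and DESeq2 1.42.0 were run on genes that averaged 10 or more counts over the libraries of a fit, with Benjamini-Hochberg adjustment over all genes tested and a threshold of 0.05. All 10 members passed this minimum in every fit. SD against SASD was fitted on 8 libraries with time as a block that pairs the libraries of one time (3 residual degrees of freedom), the SD and SASD slopes on 5 and 6 libraries (3 and 4), and the slope difference on 10 (7). With 1 library per group, p-values reflect how pooled libraries and times vary, which may be technical. Ratios at one time carry exact 95% conditional binomial intervals, with no prior count, for counting error only. Correlations used log2 CPM with a prior count of 2. Genes named beside the 10 are the highest and lowest of each pathway list in SD against SASD. Pathway genes with a log2 ratio of at least 1 and the same sign at all 4 times are also named. So are the 3 genes most like each member. Unc93b1, Irak1, Irak4, Traf6, Tnf, Nos2, Tlr8, Ifnb1 and the single cell type markers lie outside this rule and were named after their values were seen. The members, lists and tests were chosen with earlier results of these data known. The test code was run on simulated counts in which all genes shared the same spread and the effects followed the fitted model. That run does not show how the tests behave on these libraries. Alternatives were RLE size factors, count minimums of 0 and 50, DESeq2, limma voom, no haemoglobin genes, other time scales, libraries or pairs left out, no time block, a term for Con and the 48 h libraries, and, added after the data were seen, leaving out Con and the 48 h libraries.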

Additional observations from a re-analysis of the deposited data

Results flagged for a closer look

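Of the 10 genes, 4 changed differently with the hours of SD than with the hours of SASD, by the test of the difference between the slopes over 10 libraries. By the same test 1.82% of 13982 genes were called as steeper in SD blood. The SD slope minus the SASD slope was 1.23 ± 0.15 for Cd14 (edgeR adjusted p 0.00299), 0.51 ± 0.09 for Tlr2 (0.0181), 0.35 ± 0.06 for Tlr6 (0.0194) and 0.35 ± 0.06 for Myd88 (0.0108), in log2 units per doubling of 1 plus hours over 6. For each of these genes the libraries at 12, 24 and 48 h of SD lay above every SASD library of the shared times, as they did for 6.4% of the genes tested. The Cd14 call was made under all 19 alternatives. Those of Tlr2, Tlr6 and Myd88 were lost without SD at 24 h (edgeR adjusted p 0.0814, 0.0992 and 0.0585) and without SASD at 120 h (0.155, 0.133 and 0.0887). With hours on a linear scale those of Tlr6 and Myd88 were lost (0.122 and 0.0665). The Tlr2 call was also lost without SD at 48 h (edgeR adjusted p 0.099) and without Con and both 48 h libraries (0.0746). Mature neutrophil markers summed to 3275 to 11350 CPM in SD and 2270 to 3061 CPM in SASD blood at the shared times. S100a8 and S100a9 were the largest parts of that sum at 48 h of SD. The part of these markers in the slopes was not tested.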

How the results depend on the processing

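In SD against SASD 0 genes and 0 of the 10 members were called. With no count minimum 389 genes and 5 members were called, with DESeq2 169 and 2, and without the 6 h pair 237 and 5. Limma, RLE size factors, the other pairs left out and the fit without the time block called 0 and 0. The SD slope, with 18 genes and 0 members called, gave 63 and 2 with no count minimum, 456 and 6 with DESeq2, 69 and 2 with limma, 65 and 1 with ranked times, 796 and 7 with the term for Con and the 48 h libraries, and 314 and 4 without those libraries. With linear hours it gave 0 genes. Leaving out each library in turn gave 0 to 511 genes and 0 to 3 members, the most without SD at 48 h. In the SASD slope 0 genes were called, and 0 to 1 with each library left out. In the slope difference (255 genes, 4 members) DESeq2 called 511 genes and the term for Con and the 48 h libraries 483. With linear hours Tlr6 and Myd88 lost their calls. Leaving out each library in turn gave 58 to 306 genes and 1 to 5 members, the fewest without SASD at 120 h and, for members, also without SD at 24 h. No called value changed sign. The cause of these shifts was not tested. Depth limits Ly96, with 10 to 90 counts, and Cd14 in SASD blood, with 34 to 161.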

Other observations

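The longest SASD time had no SD partner. Over SASD at 24 h, SASD at 120 h held less Cd14, at 0.371-fold (95% counting interval 0.234 to 0.579), less Tlr4, at 0.602-fold (0.496 to 0.731), less Tlr9, at 0.656-fold (0.588 to 0.732), less Tlr13, at 0.764-fold (0.689 to 0.847), and less Tlr2, at 0.80-fold (0.668 to 0.959). Tlr7 was at 1.19-fold (1.03 to 1.37), Tlr1 at 1.16-fold (1.06 to 1.28) and Myd88 at 1.15-fold with an interval above 1. These are single libraries without a test, and the ratios depend on the scaling. The TMM factor was 0.826 for SASD at 24 h, the lowest of all libraries, and 1.07 for SASD at 120 h. With total counts in place of TMM factors every one of these ratios would be higher. Tlr13 and Tlr2 would then be close to equal in both libraries. The haemoglobin share was 3.57% at 120 h and 6.96% at 24 h, the neutrophil marker sum 2113 CPM at 120 h and 3061 CPM at 24 h, and the B cell sum 6063 CPM at 120 h and 5557 CPM at 24 h.

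Tlr8, which is related to Tlr7 and was not among the 10 genes, was at 12.7, 16.7, 28.9 and 35.2 CPM over the SD times, against 15.2, 9.11, 18.6 and 29.1 CPM over the same SASD times, 20.7 CPM at 120 h of SASD and 12.6 CPM in Con. It was high at 48 h under both methods, and its slope difference was 0.23 ± 0.09 with an edgeR adjusted p of 0.419.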
